A study of Homo sapiens with 6 samples.

Results

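U87-2M1 is an invasive subline of the human glioma line U87, recovered after cells had been carried to the lung in an animal assay and then grown again in culture. At passage 4 the cells, kept in hypoxia, received a baculoviral vector, an insect virus used to bring genes into mammalian cells. The control group carried a control decoy and the other group a decoy against the microRNA miR-10b, with 3 arrays in each. RNA was measured once per array with oligonucleotide probe sets. The labels do not say whether the arrays came from separate cultures, and a p-value here compares groups only with the spread among these arrays, which may be technical.

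The genes described here are 35 neighbours on the long arm of chromosome 4, from CAMK2D to RAB33B, of 19775 genes on the array. They were chosen by their place on the chromosome and by the deposited signals of these same arrays, as part of a stretch lower as a whole with the miR-10b decoy. The contrast between decoys therefore helped to choose them, and their differences are given as a description, with no p-value. How many members passed the threshold of the fit over all genes is stated for the same purpose and supports nothing. For each gene the probe set with the highest mean signal was used, and 31 of the 35 lay above the 30th percentile of mean signal over all genes, a signal of 15.6. The remaining 4, NDST4, NDST3, PRSS12 and FABP2, lay under that level on all 6 arrays. No array of the 31 tested members lay under it.

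A run of neighbours like this one holds genes of unrelated function. Neighbouring genes can share transcription start regions, enhancers and chromatin state, and a gain or loss of a chromosome segment changes the copy number of all genes on it together. Some genes lie head to head, with start sites so close that a single stretch of DNA serves as promoter for a transcript on each strand. The stretch from CAMK2D to RAB33B includes genes of the primary cilium and centriole, of RNA processing, of cyclic nucleotide and growth factor signalling, and of sulfated glycans and glycolipids.

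The members did not all lie on the same side of 0. Of the 31 tested members, 23 had a negative difference and 8 a positive one. In the fit over all genes 12 were on the lower and 1 on the higher side of an adjusted p of 0.05, and 18 did not reach it. Over all 13842 tested genes 17.3% were lower and 16.6% higher, and because the members were chosen from this contrast nothing is read from the comparison of those shares. All decoy arrays lay below all control arrays for 14 members and above them for 4, against 24.1% and 22.3% of all tested genes. The median log2 difference was -0.27 over the members (quartiles -0.47 and 0.02) and -0.02 over all tested genes.

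Sequence around the start sites shows how closely some of these genes are packed. RefSeq promoter windows (GRCh38.p14), each running from 250 bases before to 50 bases after an annotated start, were matched by symbol for 31 of the 35 members. The windows of 9 pairs on opposite strands overlapped, and in 2 of these pairs both genes were members. No overlap or motif was used in choosing the members. The 4 pairs with both genes tested are shown by 1 window each, 5′ to 3′ on the plus strand, with the bases shared with the partner's window in capitals. C4orf33 (chr4:129093462-129093761) shares 272 bases with SCLT1, ABHD18 (chr4:127965156-127965455) 268 with MFSD8, AFG2A (chr4:122922828-122923127) 209 with NUDT6, and NAA15 (chr4:139301255-139301554) 230 with NDUFC1.
C4orf33: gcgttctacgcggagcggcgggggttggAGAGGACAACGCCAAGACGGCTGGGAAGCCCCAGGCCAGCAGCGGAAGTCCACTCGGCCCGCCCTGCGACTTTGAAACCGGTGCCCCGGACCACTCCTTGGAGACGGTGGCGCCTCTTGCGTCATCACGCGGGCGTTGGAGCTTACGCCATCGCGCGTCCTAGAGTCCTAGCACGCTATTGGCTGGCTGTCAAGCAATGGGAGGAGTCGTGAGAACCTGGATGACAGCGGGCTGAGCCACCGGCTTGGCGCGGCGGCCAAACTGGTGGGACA
ABHD18: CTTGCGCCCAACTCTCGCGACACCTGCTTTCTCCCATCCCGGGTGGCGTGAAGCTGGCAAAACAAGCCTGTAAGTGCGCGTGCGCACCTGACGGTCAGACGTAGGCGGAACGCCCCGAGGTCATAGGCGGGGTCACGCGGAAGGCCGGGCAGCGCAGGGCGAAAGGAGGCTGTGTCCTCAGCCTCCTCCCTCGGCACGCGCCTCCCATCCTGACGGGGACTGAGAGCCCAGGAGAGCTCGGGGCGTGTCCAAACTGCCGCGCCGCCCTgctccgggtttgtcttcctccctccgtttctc
AFG2A: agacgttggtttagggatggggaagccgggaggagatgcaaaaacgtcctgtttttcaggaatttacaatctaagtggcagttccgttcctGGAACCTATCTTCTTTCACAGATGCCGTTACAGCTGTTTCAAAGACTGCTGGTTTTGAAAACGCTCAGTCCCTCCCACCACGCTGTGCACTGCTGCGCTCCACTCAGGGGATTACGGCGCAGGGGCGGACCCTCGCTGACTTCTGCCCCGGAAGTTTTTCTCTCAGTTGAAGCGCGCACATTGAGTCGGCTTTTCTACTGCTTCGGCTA
NAA15: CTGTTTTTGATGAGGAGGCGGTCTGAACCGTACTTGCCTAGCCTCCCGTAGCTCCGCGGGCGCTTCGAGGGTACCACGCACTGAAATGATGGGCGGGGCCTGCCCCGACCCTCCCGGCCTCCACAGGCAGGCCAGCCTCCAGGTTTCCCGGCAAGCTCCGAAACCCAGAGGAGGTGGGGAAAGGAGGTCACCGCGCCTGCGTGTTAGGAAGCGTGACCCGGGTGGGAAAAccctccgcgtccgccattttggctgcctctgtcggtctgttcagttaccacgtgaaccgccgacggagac

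The next windows belong to the member with the lowest difference, PLK4 (chr4:127880643-127880942, plus strand), and the member with the highest difference, JADE1 (chr4:128809450-128809749, plus strand), each the first window listed for the gene. Capitals mark motif matches on either strand: in JADE1 a single GC box, and in PLK4 4 matches to the GC box, the ETS core and the palindromic motif of the factor NRF1. The windows printed were chosen after the values of the genes were seen.
PLK4: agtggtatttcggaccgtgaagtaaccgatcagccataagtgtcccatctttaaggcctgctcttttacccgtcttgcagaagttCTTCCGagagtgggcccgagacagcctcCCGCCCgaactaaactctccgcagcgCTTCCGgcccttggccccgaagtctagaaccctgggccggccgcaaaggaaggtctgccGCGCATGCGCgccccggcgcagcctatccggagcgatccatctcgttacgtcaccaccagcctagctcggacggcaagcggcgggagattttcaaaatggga
JADE1: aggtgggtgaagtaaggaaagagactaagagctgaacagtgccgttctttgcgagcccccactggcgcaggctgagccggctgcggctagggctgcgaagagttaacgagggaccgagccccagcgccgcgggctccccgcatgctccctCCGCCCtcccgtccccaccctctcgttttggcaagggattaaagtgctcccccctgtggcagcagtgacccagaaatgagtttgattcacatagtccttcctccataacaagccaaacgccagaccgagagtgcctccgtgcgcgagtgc

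With the first listed window of each gene and both strands searched, the GC box GGGCGG was found in 61.3% of the 31 member promoters and in 44.6% of 27305 promoters of the same length, chromosome 8 not used here. The CCAAT box, spelled CCAAT, was in 35.5% of member promoters and 35.7% of all. The ETS core with its flank, spelled CGGAAG, was in 25.8% and 19.9%. The TATA box, spelled TATAAA, was in 9.68% and 12%, and the NRF1 motif in 3.23% and 1.36%. PLK4 was the 1 member with the NRF1 motif. Median GC content was 61.3% in members and 58.3% in all promoters, with members ranging from 34% at FABP2 to 77.3% at PDE5A. The ratio of observed to expected CpG had a median of 0.78 in members and 0.58 in all. The set of all promoters includes noncoding genes, such as METTL14-DT, and was not matched to the members, so nothing is read from these differences. A match describes letters in the window and says nothing about binding.

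Signals below are quantile-normalized values of single arrays, given for replicates 1, 2 and 3 in that order, and log2 differences are miR-10b decoy minus control decoy on the log2(signal + 7) scale with the standard error (SE) of the fit. The offset makes differences of dim genes look smaller than they are. Levels are set against each other only within a probe set.

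Among genes of the cilium and centriole, PLK4 and BBS7 stood lowest. PLK4, the kinase that starts centriole duplication, had signals of 154, 158 and 170 with the control decoy and 75, 78.4 and 59.1 with the miR-10b decoy. The decoy mean was 44.1% of the control mean, a log2 difference of -1.11 (SE 0.13), and the groups lay far apart. Its other probe set above the filter level had -1.09. BBS7, a subunit of the BBSome that carries membrane proteins into cilia, had 226, 229 and 218 in controls against 152, 168 and 164. That is a log2 difference of -0.46 (SE 0.09), with no overlap, and the other BBS7 probe set had -0.79. SCLT1, a distal appendage protein of the centriole, had 97.4, 92.0 and 120 against 68.5, 87.1 and 75. The SCLT1 groups did not overlap, though the nearest arrays, 92.0 and 87.1, were close, and the difference was -0.39 (SE 0.15). The chaperonin-like BBS12 and the planar polarity effector INTU overlapped between groups, at 0.09 (SE 0.12) and -0.08 (SE 0.16).

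Genes of glycans and lipids included some of the clearest separations. ARSJ, an arylsulfatase, had signals of 372, 394 and 380 in controls and 210, 194 and 191 with the miR-10b decoy. Its decoy mean was 51.9% of the control mean, a log2 difference of -0.92 (SE 0.08), far beyond the spread within either group. UGT8, which makes galactosylceramide, the myelin glycolipid, had 411, 443 and 410 against 286, 291 and 297. The groups were again separate, with a difference of -0.52 (SE 0.08) and -0.29 for the other probe set. The heparan sulfate N-deacetylase/N-sulfotransferases NDST4 and NDST3 and the intestinal fatty acid binding protein FABP2 gave no usable level, with signals from 1.16 to 15.6.

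The 4 cytoskeletal and adhesion genes had negative differences, and only FAT4 separated the groups. FAT4, a giant atypical cadherin of planar polarity and Hippo signalling, had 139, 161 and 117 in controls and 52.5, 69.5 and 82.4 with the miR-10b decoy. Every decoy array lay below every control array, and the mean was 48.9% of the control mean, a difference of -0.97 (SE 0.17). MYOZ2, a sarcomeric calcineurin-binding protein, had 191, 220 and 145 against 152, 113 and 134. Its groups overlapped at -0.45 (SE 0.15), and its other probe set above the filter level had 0.00. SYNPO2, an actin-binding protein, had 45.1, 40.6 and 63.0 against 48.2, 51.3 and 17.3, a difference of -0.38 (SE 0.31) that became 0.02 without miR-10b decoy replicate 3. USP53, a tight junction protein related to deubiquitinases, overlapped at -0.14 (SE 0.08).

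Of the secreted proteins only NDNF was above the filter level. NDNF, a secreted factor that promotes neuron migration and growth, had 114, 110 and 116 in controls and 59.3, 73.4 and 69.9 with the decoy. The groups did not overlap, and the difference was -0.70 (SE 0.13). The protease neurotrypsin, PRSS12, stayed under the filter level.

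The 5 signalling genes had differences on either side of 0. PDE5A, the phosphodiesterase that degrades cGMP, had 62.9, 50.8 and 50.3 in controls and 27.7, 41.5 and 33.5 with the miR-10b decoy. The groups were separate at -0.59 (SE 0.20). Its 3 other probe sets above the filter level, all dim, had -0.03, 0.07 and -0.86, and the mean of all its probe sets gave -0.27. CAMK2D, the delta subunit of calcium/calmodulin-dependent kinase II at the near end of the stretch, had 958, 967 and 978 against 1071, 1027 and 1078. All its decoy arrays lay above the controls, by a log2 difference of only 0.13 (SE 0.06), while its 3 other probe sets above the filter level had -0.31, -0.15 and -0.01. TNIP3, an inhibitor of NF-kB signalling, was dim, with 27.7, 16.5 and 22 against 29.6, 30.5 and 38.9. Its decoy arrays were the higher ones, at 0.47 (SE 0.26). SPRY1, a feedback inhibitor of receptor tyrosine kinases, and ANXA5, which binds phosphatidylserine, overlapped at -0.26 (SE 0.22) and -0.11 (SE 0.05).

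Of the 6 RNA and protein modification genes, 4 had negative differences. AFG2A, an ATPase of ribosome maturation, had 150, 173 and 141 in controls and 111, 120 and 103 with the miR-10b decoy, a difference of -0.45 (SE 0.12) with no overlap. A dimmer AFG2A probe set had 0.07. EXOSC9, a core subunit of the RNA exosome, had 684, 678 and 746 against 559, 597 and 617. The step was small, -0.25 (SE 0.07), yet every decoy array was below every control. METTL14, the partner of METTL3 in the N6-methyladenosine (m6A) writer, had 213, 218 and 224 against 189, 211 and 185, at -0.16 (SE 0.09). Its nearest arrays, 213 and 211, were close, and its 2 other probe sets above the filter level had -0.03 and 0.23. NOCT, a clock-regulated phosphatase of the deadenylase fold, overlapped at -0.29 (SE 0.16). NAA15, the ribosome-anchoring subunit of the NatA acetyltransferase, had 471, 405 and 275 in controls against 506, 449 and 483. Control replicate 3 stood apart there as the lowest array. Control replicate 1, at 471, lay above decoy replicate 2, at 449, so that the groups overlapped at 0.35 (SE 0.15). The La-related protein LARP1B had 0.07 (SE 0.12), but 3 of its 5 other probe sets had values of -0.63, -0.50 and -0.51.

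Of the transcription regulators, JADE1 separated the groups and ELF2 did not. JADE1, a scaffold of the HBO1 histone acetyltransferase complex, had 479, 502 and 420 with the control decoy and 748, 671 and 666 with the miR-10b decoy. The decoy mean was 149% of the control mean, a log2 difference of 0.57 (SE 0.08), and the groups were well separated. All 3 other JADE1 probe sets above the filter level were positive too, at 0.38, 0.64 and 0.23. The ETS factor ELF2 had 163, 180 and 171 against 212, 171 and 203, at 0.18 (SE 0.11) with overlap, and its 2 other probe sets above the filter level had 0.06 and -0.34.

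Of the membrane and trafficking genes, PGRMC2, a heme-binding membrane protein, was lowest. It had 821, 719 and 587 in controls and 533, 450 and 528 with the decoy, a difference of -0.48 (SE 0.11), and its other probe set had -0.13. The controls spread widely but stayed above every decoy array. RAB33B, the Golgi GTPase at the far end, had 201, 179 and 165 against 120, 146 and 160. Its nearest arrays differed little, at -0.35 (SE 0.13). ANKRD50, which acts in endosomal recycling, had 209, 224 and 204 against 229, 258 and 264, so that all decoy arrays were higher, at 0.23 (SE 0.09). The lysosomal membrane protein MFSD8 overlapped at -0.04 (SE 0.09), whereas its 2 other probe sets had -0.36 and -0.42. Among the little characterised genes, C4orf33 had 167, 143 and 130 in controls and 62.2, 84.0 and 80.3 with the decoy. Its decoy mean was 51.5% of the control mean, at -0.90 (SE 0.15), and the mean of all its probe sets, the other 2 of which lay under the filter level, gave -0.39. ABHD18 overlapped at -0.27 (SE 0.19), and its 2 other probe sets had 0.50 and 0.08.

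**Figure D1:**
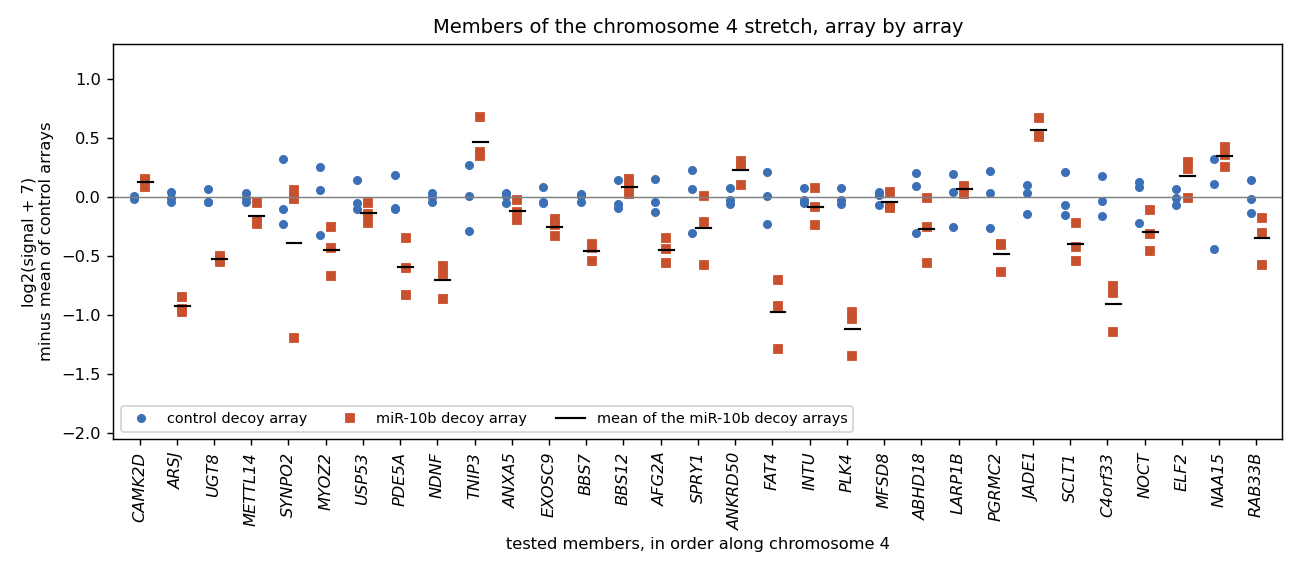
Each of the 31 tested members is plotted in chromosome order, with the vertical axis giving log2(signal + 7) of each array minus the mean of the control arrays. Circles are the 3 control arrays, squares the 3 miR-10b decoy arrays and bars the decoy means: PLK4, FAT4, ARSJ and C4orf33 lie lowest, at -1.11, -0.97, -0.92 and -0.90, and JADE1 highest, at 0.57.

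Probe sets of the same gene often disagreed. The members had 96 probe sets in all, and 41 probe sets other than the chosen ones lay above the filter level, in 21 genes. Of these 41, 23 had a negative and 18 a positive difference. The sign matched the chosen probe set for every other probe set in 10 genes, among them PLK4, BBS7, UGT8, JADE1, SCLT1, MFSD8 and PGRMC2. It was opposite for each of the others in 5, namely ABHD18, AFG2A, CAMK2D, MYOZ2 and SPRY1, and mixed in 6. Averaging every probe set brought AFG2A to -0.18, MYOZ2 to -0.30, PGRMC2 to -0.30 and NAA15 to 0.18. ARSJ, FAT4, NDNF, EXOSC9 and RAB33B are among the 11 members with 1 probe set each, and 7 of the 35 chosen probe sets have names ending in the suffixes used for sequences shared by several transcripts, those of PLK4, EXOSC9, MYOZ2 and PGRMC2 included.

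For genes that share a start region, the differences of the chosen probe sets did not always have the same sign. C4orf33 and SCLT1, whose windows share 272 bases, were at -0.90 and -0.39, with every decoy array below every control array for each. ABHD18 and MFSD8, which share 268 bases, both overlapped between groups. AFG2A was at -0.45, while NUDT6 across its start region, an antisense neighbour of FGF2, had 60.8, 74.6 and 101 in controls against 82.1, 111 and 97.7. The NUDT6 difference of 0.29 (SE 0.18) did not pass the limma test over all genes (adjusted p = 0.25). NAA15 was at 0.35 with overlap, and NDUFC1, a subunit of respiratory complex I, was lower at -0.19 (SE 0.04, adjusted p = 0.0051 by limma). Differences within a pair were not tested. The other AFG2A probe set above the filter level had 0.07, and the NDUFC1 call ended when every probe set was averaged. The other probe sets of ABHD18 had 0.50 and 0.08, and those of MFSD8 -0.36 and -0.42.

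The arrays of a group were alike over the members. Relative to the mean of the control arrays, the median over the 31 members was -0.24, -0.22 and -0.23 on the 3 miR-10b decoy arrays and -0.01, 0.03 and -0.01 on the control arrays. Over all tested genes the same median lay between -0.02 and 0.02 on every array. Because the members were chosen from this contrast, the separation is a description.

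Between CAMK2D and RAB33B lie 38 further genes that are on the array and are no members, and 19 of them were tested. In the fit over all genes (limma, Benjamini-Hochberg) 8 of the 19 were lower, 2 were higher and 9 did not pass, and their median difference was -0.32. The shares were 42.1% lower and 10.5% higher, against 17.3% and 16.6% of all tested genes. The stretch was chosen with these arrays in view as lower as a whole, which takes in these genes too. Their counts and adjusted p-values, wherever given, therefore only describe the stretch and support nothing. MGARP, a mitochondrial protein, fell from 188 ± 14.5 to 81.7 ± 4.57 (SD, n = 3), a log2 difference of -1.13 (SE 0.11, limma adjusted p = 2.2e-05). MAD2L1, the spindle checkpoint protein, fell by 0.95 on the log2 scale (SE 0.06, limma adjusted p = 1.4e-06), and cyclin A2, CCNA2, by 0.90 (SE 0.08, limma adjusted p = 8.7e-06). Both belong, like PLK4, to the genes that proliferating cells express. The protocadherin PCDH10 fell by 0.83, the COPII coat protein SEC24D by 0.77, the small calcium pump regulator ARLN by 0.54, BLTP1, a lipid transfer protein, by 0.36, and NDUFC1 by 0.19. When every probe set of a gene was averaged, the calls of PCDH10 and NDUFC1 ended (limma adjusted p = 0.16 and 0.78) and BLTP1 turned to 0.022. The BLTP1 call also ended without control replicate 1, control replicate 2 or miR-10b decoy replicate 3 (limma adjusted p = 0.065, 0.067 and 0.060).

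The stretch also holds genes that rose. FGF2, the basic fibroblast growth factor, had 817, 871 and 932 with the control decoy and 3454, 3537 and 4461 with the miR-10b decoy. This log2 difference of 2.11 (SE 0.09, limma adjusted p = 4.0e-08) was the highest between CAMK2D and RAB33B. SLC7A11, the cystine transporter of the glutathione pathway, rose by 0.78 (SE 0.10, limma adjusted p = 0.00013), from 741 ± 61.6 to 1288 ± 202 (SD, n = 3). FGF2 lies beside NUDT6 and AFG2A, the first with no call and the second, a member, at -0.45.

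Values on either side of the stretch were mixed. The tested genes next to CAMK2D were ANK2, an ankyrin, at -0.41 (SE 0.11, limma adjusted p = 0.014), a probe set annotated as MIR302B at -0.15 (limma adjusted p = 0.44) and LARP7 at 0.00 (limma adjusted p = 0.999). Next to RAB33B came the methyltransferase SETD7 at 0.26 (SE 0.07, limma adjusted p = 0.011), MGST2 at -0.33 (limma adjusted p = 0.16) and the Notch coactivator MAML3 at -0.71 (SE 0.18, limma adjusted p = 0.0088). The ANK2 call ended without control replicate 2 (limma adjusted p = 0.060) or miR-10b decoy replicate 2 (limma adjusted p = 0.052), and that of SETD7 on the deposited scale (limma adjusted p = 0.35). The 20 tested genes before the stretch had a median of -0.21, with 6 lower (30%) and 1 higher (5%). The 20 after it had a median of -0.14, with 5 lower (25%) and 4 higher (20%). Over the 462 other tested genes of chromosome 4 the median was -0.10, with 119 lower (25.8%) and 76 higher (16.5%). Of all tested genes 17.3% were lower and 16.6% higher. In blocks of 10 tested genes from CAMK2D on, the medians were -0.42, -0.18, -0.31, -0.30 and -0.25.

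**Figure D2:**
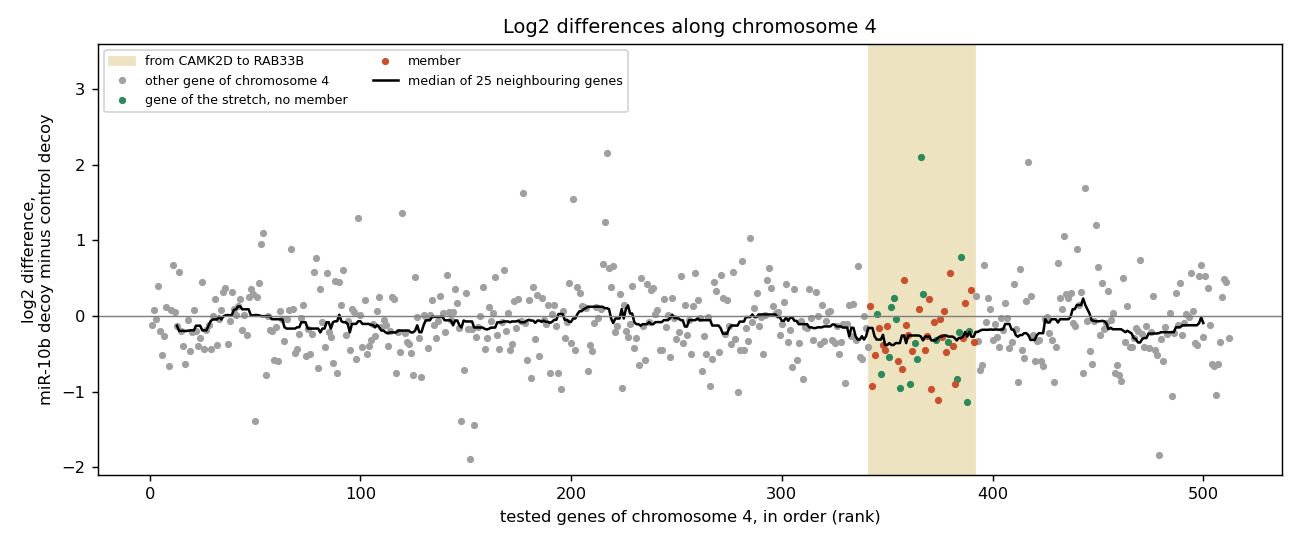
All 512 tested genes of chromosome 4 are plotted by rank along the chromosome against their log2 difference, with the stretch shaded and a running median of 25 genes, a width chosen after the data were seen, as a line. Inside the stretch the running median lay between -0.38 and -0.16, and elsewhere on the chromosome between -0.35 and 0.23, with FGF2 as the high point inside the shading.

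Chromosome 4 had the lowest median of the 23 chromosomes with tested genes, at -0.12 over 512 genes, followed by chromosome 15 at -0.07. Chromosome 19 had the highest, at 0.04. Of the genes of chromosome 4, 139 (27.1%) were lower and 79 (15.4%) higher, against 17.3% and 16.6% of all tested genes. The interquartile range of chromosome 4, from -0.38 to 0.17, overlapped that of every other chromosome, and no test between chromosomes was made.

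**Figure D3:**
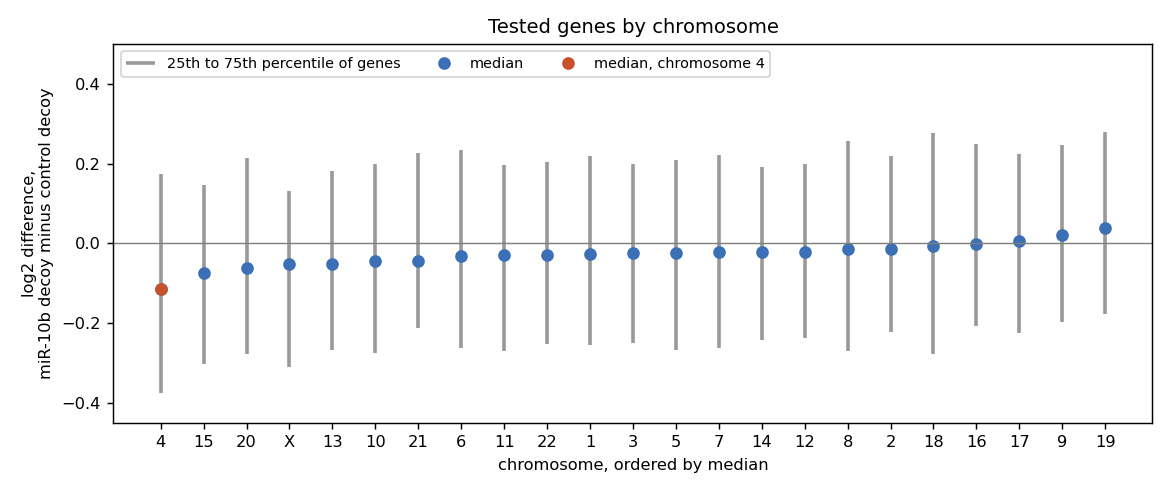
Each of 23 chromosomes is shown with the median (point) and the 25th to 75th percentile (bar) of the log2 differences of its tested genes. Chromosome 4 lies leftmost, with a median of -0.12, and all bars cross 0.

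Partners and relatives of the members encoded outside the stretch were examined in 20 lists of complexes and paralogues. Some of them lie elsewhere on chromosome 4, among them FAT1, CNOT6L, YTHDC1, TNIP2, CEP135, HS3ST1, ANXA10 and the flanking gene LARP7. Of 152 listed genes 131 were tested, and in the fit over all genes 28 were lower, 38 higher and 65 did not pass, that is 21.4% and 29.0% against 17.3% and 16.6% of all tested genes. Their median was 0.01. On the deposited scale 30 were lower and 13 higher, and after centring on the array median 23 and 42, so the split between directions moved with the scaling.

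Lists around BBS7, EXOSC9 and the NDST genes held calls in either direction, and those around PLK4 and FAT4 held lower calls only. In centriole duplication, beside PLK4, 3 of 7 tested genes were lower and 0 higher, with CEP192 at -0.54 (SE 0.12, limma adjusted p = 0.0035) and STIL at -0.41 (SE 0.10). Of 9 genes listed for the BBSome and the chaperonin-like BBS proteins, beside BBS7, 4 were lower and 1 higher. The BBSome subunit BBS2 was at -0.45, and the chaperonin-like MKKS and BBS10, which are not BBSome subunits, at -0.38 and 0.64. Of 11 tested RNA exosome partners of EXOSC9 6 were higher and 2 lower, with EXOSC6 at 0.81 (SE 0.07, limma adjusted p = 9.5e-06) and EXOSC4 at 0.80 (SE 0.08, limma adjusted p = 1.9e-05). Of the heparan sulfate enzymes, whose members NDST3 and NDST4 were not tested, 3 of 10 were lower and 1 higher, EXT2 having the smallest p at -0.51 (SE 0.08). FAT1, the cadherin related to FAT4, was lower at -0.29 (SE 0.06, limma adjusted p = 0.0030), the 1 call among 3 tested relatives.

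In this scaling the lists around JADE1, ELF2, METTL14 and NAA15 held more higher than lower calls. Around JADE1, 4 of 8 tested HBO1 complex genes were higher and 1 lower. The paralogue JADE3 rose by 0.59 (SE 0.16, limma adjusted p = 0.012) and the subunit MEAF6 by 0.30, whereas ING4 fell by 0.48. JADE2, singled out here after its value was seen, rose by 0.28 (SE 0.08, limma adjusted p = 0.020). Among ELF2 paralogues 3 of 4 were higher and 0 lower, led by the epithelial factor ELF3 from 19.0 ± 5.36 to 62.3 ± 10.1 (SD, n = 3). The m6A list around METTL14 had 5 higher and 2 lower of 12, with RBM15B at 0.50 and the demethylase FTO at -0.35. The N-terminal acetyltransferases around NAA15 had 3 higher and 2 lower of 8, with NAA30 at 0.68 and NAA38 at -0.45.

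The remaining lists are given by their counts. Distal appendage genes, beside SCLT1, had 2 lower and 1 higher of 5, arylsulfatases 1 and 1 of 6, and annexins 2 and 2 of 8. The list of cGMP phosphodiesterases and genes named with them had 1 lower, PDE6D, and 1 higher, PDE2A, of 5. Deadenylation genes had 2 lower and 3 higher of 10, LARP paralogues 1 and 2 of 5, and RAB33 partners 1 and 2 of 7. Sprouty and SPRED genes had 0 lower and 1 higher of 6, TNIP1, TNIP2 and TNFAIP3 had 0 and 2, and the 3 tested cilium polarity effectors and the single tested CaMKII paralogue did not pass the threshold. On the deposited scale the calls of MEAF6 (limma adjusted p = 0.26) and ELF4 (limma adjusted p = 0.15) ended, and with all probe sets averaged that of NAA30 did (limma adjusted p = 0.13). Without variance moderation the calls of BBS10, STIL and JADE3 ended (limma adjusted p = 0.082, 0.086 and 0.088).

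**Figure D4:**
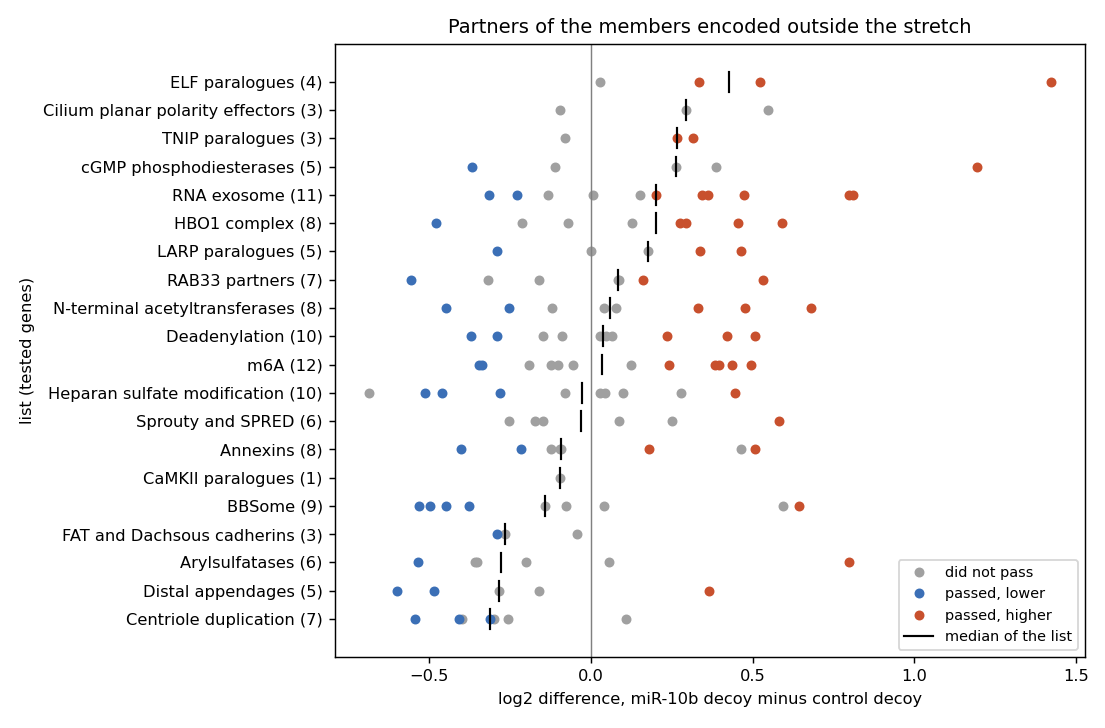
The 131 tested partners are plotted by list against their log2 difference, colored by whether they passed the limma threshold lower, higher or not at all, with a bar at the median of each list. Centriole duplication has the lowest list median, at -0.31, and the ELF paralogues the highest, at 0.43.

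The arrays themselves differed in ways that touch these values. On the deposited scale the trimmed mean signal was 192 on control replicate 3 and from 155 to 163 on the other 5 arrays, which is why quantile-normalized values are given. Control probe sets at both ends of the beta-actin transcript, which drift apart as RNA degrades, gave a 3' over 5' ratio of 5.73 ± 0.47 for the control decoy and 8.54 ± 1.77 with the miR-10b decoy (SD, n = 3, two-sided exact permutation p = 0.1, the smallest 3 against 3 arrays can give), and that of GAPDH was 0.945 ± 0.019 and 0.943 ± 0.007. The part of the actin ratio in the members' differences was not tested. Of 9 markers of glioma and mesenchymal cells 6 lay above the filter level, while GFAP, S100B and OLIG2 lay under it. VIM, CD44 and TNC did not pass the threshold, and NES, FN1 and SPARC were lower with the miR-10b decoy, SPARC from a mean of 2583 to 1661. The summed signal of the 9 was 36536 to 38147 in controls and 35457 to 36000.1 with the decoy. Leukocyte, endothelial and epithelial markers were mostly under the filter level, with CD3E, PECAM1, KRT5 and KRT8 above it and PECAM1 called lower, and with summed signals from 21.0 to 46.7 over 4 leukocyte genes, 117 to 170 over 4 endothelial genes and 75 to 138 over 4 epithelial genes. The summed signal of 4 neuronal markers, 2 of them above the filter level, was 853 to 892 in controls and 535 to 544 with the decoy, with SNAP25 called lower. The part of these markers in the members' differences was not tested. In RNA from whole cultures, fewer cells expressing a gene and less RNA per cell cannot be told apart.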

How the data were processed

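RNA of 6 samples was hybridised to arrays of 54675 probe sets. The deposited values are linear signal intensities per probe set, made by the authors with MAS5 per the submitters' processing notes. Its version and scaling target: not given in the sources used here. Probe sets with 1 gene symbol in the platform annotation (41091 without controls) were kept, and the one with the highest mean signal stood for each of 19775 genes. Of these, 19735 were matched by gene identifier to the RefSeq table (GRCh38.p14), which gave the order along the chromosome.

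Signals were quantile-normalized over all probe sets because their trimmed means differed between arrays, and turned into log2(signal + 7). Genes were filtered at the 30th percentile of mean deposited signal. The 13842 remaining genes were fitted with limma 3.58.1 in R 4.3.3 (lmFit, eBayes with an intensity trend, 7.68 prior degrees of freedom, two-sided, Benjamini-Hochberg threshold 0.05). The fit was tested on simulated data first. The number of arrays limits the precision. Genes named were all 35 members, up to 12 other genes of the stretch past the threshold in each direction, the 3 tested genes next to each end, FGF2, NUDT6, and up to 3 genes with the smallest p of each partner list. Members and lists were chosen with earlier results of these data known. The alternatives tried were 2 other scalings, 2 offsets, 2 filters, the mean of all probe sets, no trend, no moderation, the replicate number as a block, and each array left out.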

Additional observations from a re-analysis of the deposited data

How the results depend on the processing

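The members' median log2 difference, taken relative to all tested genes, was -0.25. It was -0.27 with the deposited signals and after centring on the array median. These 2 values must be equal, since centring shifts all genes of an array alike. The difference was -0.22 with an offset of 20 and -0.18 with the mean of all probe sets, and from -0.26 to -0.21 when each array was left out. Members called lower and higher numbered 12 and 1, against 13 and 1 on the deposited scale, 10 and 4 after centring, 8 and 2 with the mean of all probe sets, and 6 and 2 without moderation, and from 9 to 12 and from 1 to 2 when each array was left out, the 2 coming without control replicate 1. Of the 31 tested members, 22 to 25 had a negative difference in every setting that kept the same genes.

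Over all genes 4695 were called, 2401 lower and 2294 higher. The counts were 2561 and 1094 on the deposited scale, whose median over all genes was -0.14, 1740 and 2861 after centring, 3036 (1574 and 1462) with the mean of all probe sets, and 2829 (1379 and 1450) without moderation. Of the other genes of the stretch, 10 were called (8 lower), with 5 lower using the mean of all probe sets, and 9 to 11 when each array was left out. Partners called fell from 66 to 43 on the deposited scale (13 higher), 32 with the mean of all probe sets (14 lower, 18 higher) and 35 without moderation (16 lower, 19 higher). Without the intensity trend 24 partners were higher. The range was 53 to 59 when each array was left out. With the mean of all probe sets BLTP1 turned to 0.022, HS2ST1 to -0.033 and LARP6 to 0.10. The cause of these changes was not tested.

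For arrays with the same replicate number, deviations from the group means correlated at 0.03, -0.03 and -0.01. These values show no pairing by number, but whether such arrays shared a batch was not tested. With the replicate block 4554 genes were called, 11 members were lower, and 10 other genes of the stretch and 65 partners were called.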
